A study of Mus musculus with 2 samples.

Results

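The antioxidant enzymes examined here belong to the thioredoxin, peroxiredoxin and glutathione systems, in microglia sorted from mouse spinal cord, with a control and an atopic diathesis model. The genes were Txn1, Txnrd1, Prdx1, Prdx2, Prdx5, Prdx6, Gclc, Gclm, Gsr and Gpx1, 10 of 34793 gene names on the array, and their probes were those that carry exactly these names. The labels give 1 control sample, titled normal, and 1 atopic diathesis sample, titled activated, each of total RNA on a Cy3 one-colour Agilent array. Strain, age, sex, the way the model was made and the number of animals in a sample are not given in the sources used here. Atopic diathesis is an inherited tendency towards allergic disease, and microglia are the macrophages that reside in the central nervous system. The comparison asks which of these antioxidant genes differ in transcript level between the pair of samples. Since a group is a single array, nothing could be tested and replicates cannot check any difference: every value describes these 2 samples. Both arrays come from 1 slide, so group and array position cannot be told apart.

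Thioredoxin and glutathione are the main carriers of reducing power against hydrogen peroxide in the cytosol. Peroxiredoxins and glutathione peroxidases reduce the peroxide, the thioredoxin and glutathione that they oxidise are reduced again by thioredoxin reductase and glutathione reductase, and both reductases draw on NADPH. In macrophages, microglia included, these enzymes limit the oxidants that the phagocyte oxidase and the mitochondria release. Many of their genes are targets of the transcription factor Nrf2.

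The 10 genes had 16 probes, each printed as 1 spot of 60 bases. Of the 16, 13 probes for 9 genes were well above background on both arrays, which is what counts as measured here, and 3 were not above it on either array. The 3 probes shown whole here lie in coding sequence, and they stand for Gpx1, which was higher under every way of processing tried, for the lowest Prdx6 reading, and for Prdx5, whose probes read alike. Sequences run 5′ to 3′ and no base is marked by capitals.
Gpx1, chr9:108242276-108242335 (mm9, plus strand): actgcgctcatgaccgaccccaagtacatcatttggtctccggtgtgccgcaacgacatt
Prdx6 probe 1, chr1:163173715-163173774 (mm9, minus strand): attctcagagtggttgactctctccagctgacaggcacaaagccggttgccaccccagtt
Prdx5 probe 1, chr19:6981371-6981430 (mm9, minus strand): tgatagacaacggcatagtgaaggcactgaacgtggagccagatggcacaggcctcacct

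Of the probes whose place within the transcript was not determined, the first 30 of their 60 bases are shown for Txnrd1 and Gclc, the members with the highest and the lowest difference, and for both other measured Prdx6 probes, which disagreed with each other. Probes of a gene are numbered from its 5′ to its 3′ end.
Txnrd1, chr10:82360230-82360289 (mm9, plus strand): cctttcaagtctgccagtctctgagatcag
Gclc, chr9:77641296-77641355 (mm9, plus strand): agtgaactggcttgtacattttgaattctt
Prdx6 probe 2, chr1:163171791-163171850 (mm9, minus strand): tctttgcggaaattggggctgcatctgcac
Prdx6 probe 3, chr1:163171138-163171197 (mm9, minus strand): gtggccatttctgaattctgctttttgagg

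None of the 16 probes shared a run of 25 bases with a probe of another gene name. The files list Prdx6 probe 1 also for a transcript of Prdx6b, a close copy of Prdx6, so that reading cannot be assigned to Prdx6 alone.

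Txnrd1, Gpx1 and Txn1 were the 3 members at least 2-fold higher in atopic diathesis microglia, and Gclc and Prdx6 were the 2 at least 2-fold lower. Prdx6 counts as lower by the mean of 3 probes that disagreed in direction. The other 4 measured members, Prdx1, Prdx2, Prdx5 and Gsr, lay within 2-fold, and Gclm did not clear the background in either sample. Differences are log2 processed signal in atopic diathesis minus control, relative to the median of the 9204 measured genes. Among all measured genes 17.3% passed 2-fold upwards and 15.6% downwards, so 3 and 2 of 9 members are to be read against those shares. The median difference of the 9 members was 0.73, with 5 members above 0 and 4 below. Their median absolute difference was 1.02, against 0.60 over all measured genes. Repeated spots of other probes gave the only error estimate, and it set the 95% intervals: ±0.57 for a mean signal under 100, ±0.29 from 100 to 1000 and ±0.15 above that. These intervals leave out the spread between animals, cell sorts and RNA amplifications, and they hold for this scaling only. In a bulk sample, fewer cells of a type and less RNA per cell cannot be told apart.

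**Figure D1:**
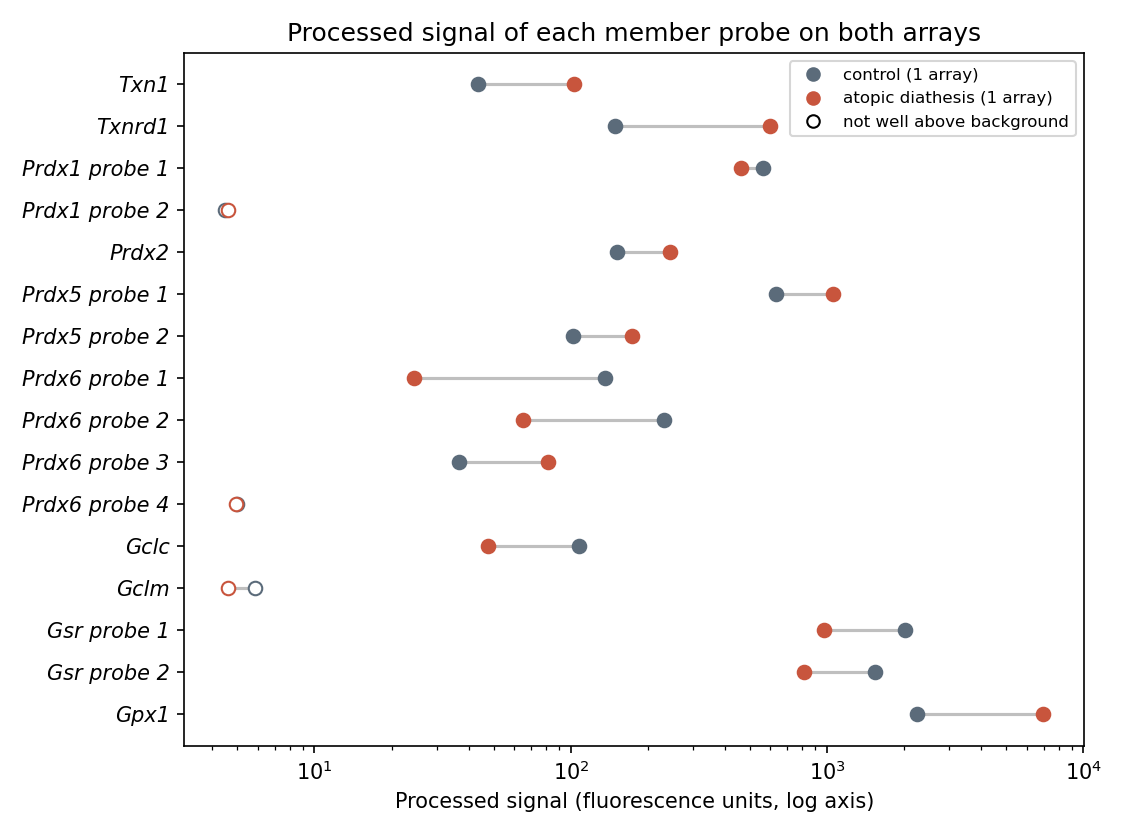
Processed signal (fluorescence units, log axis) of the 16 probes on the control array (grey) and the atopic diathesis array (red), with open circles where a probe was not well above background. The red point lies to the right for Txn1, Txnrd1, Prdx2, Prdx5, Prdx6 probe 3 and Gpx1, and to the left for Prdx1 probe 1, Prdx6 probes 1 and 2, Gclc and Gsr.

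Signals compare the samples on one probe, and signals of different probes cannot be set against each other. Both genes of the cytosolic thioredoxin pair were higher. Txnrd1 encodes the selenium-containing thioredoxin reductase of the cytosol, which passes electrons from NADPH to thioredoxin. Its probe read 149 in control against 600 in atopic diathesis, a 4.12-fold difference (log2 2.04, spot interval 1.75 to 2.33). Among all measured genes 6.17% had a difference as high as that of Txnrd1. Txn1, thioredoxin itself, read 43.4 and 103, 2.43-fold higher (log2 1.28, interval 0.71 to 1.85). The Txn1 interval reaches below 2-fold, and its control signal was near the lower end of what the array detects, whose lowest signal well above background was 19.8. Txn1 dropped to a log2 difference of 0.69 with normexp background correction and to 0.61 with uncorrected signals.

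The peroxiredoxins, which take up peroxide on a reactive cysteine and mostly depend on thioredoxin to be reduced, did not share one direction. Prdx1, an abundant cytosolic peroxiredoxin, read 562 and 463 on probe 1, a log2 difference of -0.25 with an interval from -0.54 to 0.04. On this scale the arrays did not differ beyond spot error. Scaled to the 75th percentile of all probes, Prdx1 stood at -0.75, beyond spot error. Prdx1 probe 2, which lies further 3′, cleared the background on neither array, at 4.49 and 4.58. Prdx2, its cytosolic relative, best known from red blood cells and neurons, read 151 and 244, 1.66-fold higher (log2 0.73, interval 0.44 to 1.02). With the scaling to all probes, Prdx2 stood at 0.23, within spot error. Prdx5, found in mitochondria, peroxisomes and cytosol, gave nearly the same difference on its pair of probes. Prdx5 probe 1 read 631 and 1054 (log2 0.77) and Prdx5 probe 2, at 59 bases of genome on the same strand (chr19:6981198-6981256), read 102 and 173 (log2 0.80). Their distance of 0.02 was smaller than that of most of the 1135 genes with 2 measured probes, which had a median of 0.62.

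Prdx6, the peroxiredoxin that uses glutathione in place of thioredoxin and also has a phospholipase activity, gave opposite readings along its transcript. Probe 1 read 136 in control against 24.5 in atopic diathesis, 5.45-fold lower (log2 -2.45, interval -3.02 to -1.88). Probe 2 read 230 and 64.9, 3.46-fold lower (log2 -1.79, interval -2.08 to -1.50). Probe 3, nearer the 3′ end, read 36.7 and 81.5, 2.27-fold higher (log2 1.18, interval 0.61 to 1.75). The lowest signal well above background was 19.8 in control and 19.9 in atopic diathesis. The control signal of probe 3 (36.7) and the atopic diathesis signal of probe 1 (24.5) were thus near the lower end of detection. Probe 4, the most 3′ of them, stayed below background on both arrays, at 4.97 and 4.94. The intervals of probes 1 and 3 do not overlap, and 2 of 3 measured probes were lower. Measured Prdx6 probes spanned 3.63 on the log2 scale, a span reached by 16 (7.48%) of the 214 genes with 3 measured probes. The mean of the 3 probes was -1.02. It was -2.12 without probe 3, -0.63 without probe 2 and -0.30 without probe 1, so the place of Prdx6 among the lower members depends on which probes are counted. The Prdx6 value should be read by probe and not as one level of the gene.

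On the single-probe scale, 4 member probes passed 2-fold upwards and 4 downwards, where 17.6% and 16.3% of the 11263 measured probes were. The 4 higher probes were those of Txn1, Txnrd1 and Gpx1 and Prdx6 probe 3. The 4 lower ones were Prdx6 probes 1 and 2, the Gclc probe and Gsr probe 1.

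**Figure D2:**
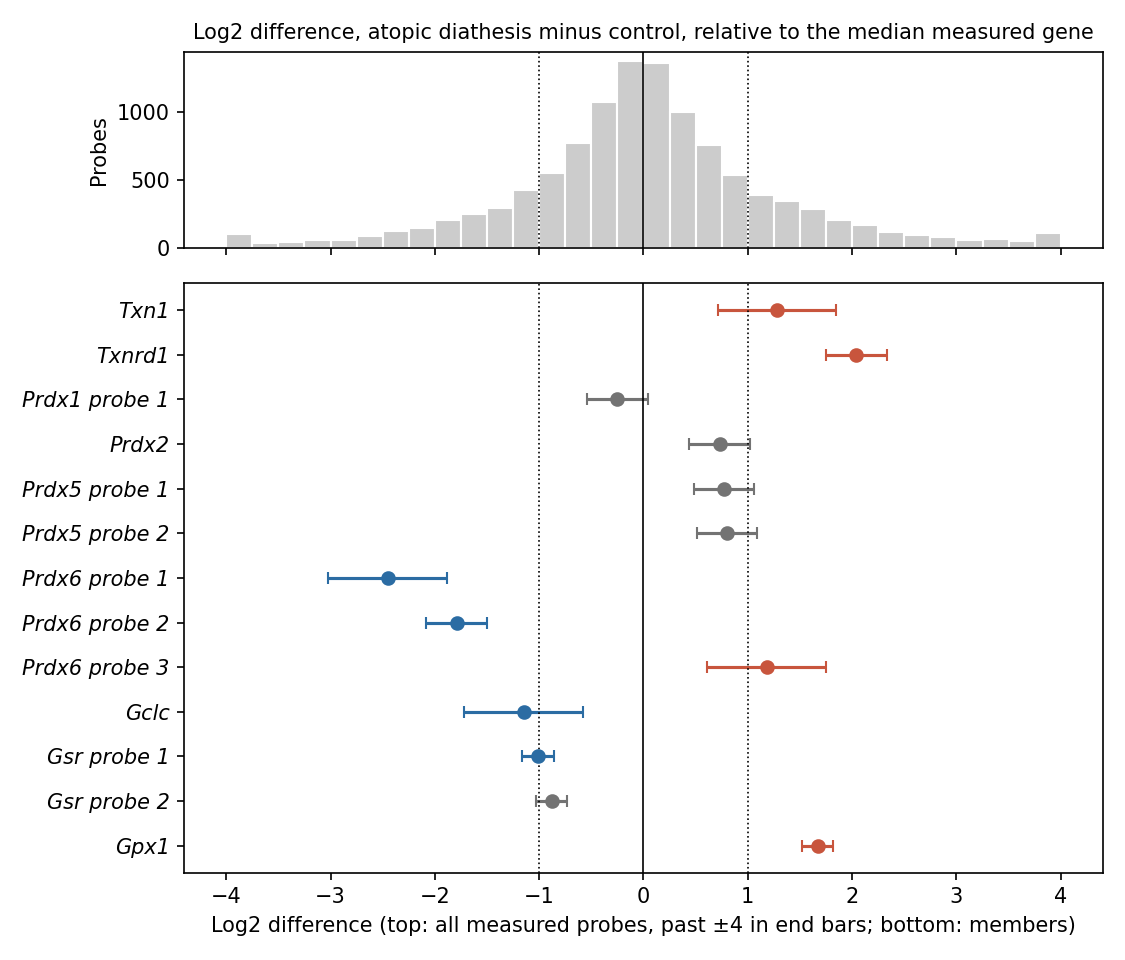
Top, number of measured probes by log2 difference (atopic diathesis minus control, relative to the median measured gene), with values past 4 in either direction in the end bars. Bottom, the 13 measured member probes with the 95% interval from repeated spots, red where at least 2-fold higher, blue where at least 2-fold lower and grey between, with dotted lines at 2-fold. Prdx5 probes lie together at 0.77 and 0.80, whereas Prdx6 probes lie at -2.45, -1.79 and 1.18.

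The genes that make and restore glutathione were lower or not detected. Gclc is the catalytic subunit of glutamate-cysteine ligase, the rate-limiting enzyme of glutathione synthesis. It read 108 in control against 47.6 in atopic diathesis, 2.22-fold lower (log2 -1.15, interval -1.72 to -0.58), and the interval reaches within 2-fold. Gclm, the modifier subunit that raises the activity of Gclc, read 5.84 and 4.61 on its single probe, whose 60 bases are spread over 2636 bases of genome (chr3:121962174-121964809, mm9, plus strand) and so cross a splice junction. It cleared the background on neither array, so no fold is given. Gsr, the reductase that returns oxidised glutathione to its reduced form, read 2004 and 975 on probe 1 (chr8:34808413-34808472, mm9, plus strand) and 1536 and 813 on probe 2 (chr8:34808488-34808547). The log2 differences were -1.01 and -0.88, with intervals of -1.16 to -0.86 and -1.03 to -0.73. Both Gsr probes were thus lower beyond spot error and agreed within 0.12, and their mean of -0.95, 1.93-fold lower, lay just inside the 2-fold limit.

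Gpx1, the selenium-dependent glutathione peroxidase of cytosol and mitochondria, went the other way. Its probe read 2238 and 6956, 3.18-fold higher in atopic diathesis microglia (log2 1.67, interval 1.52 to 1.82). Of all measured genes 9.05% were as high as Gpx1. Measured genes were divided into 5 groups of equal size by mean signal, group 1 being the dimmest. Gpx1 and Gsr belong to group 5, where 6.84% of genes passed 2-fold upwards and 8.42% downwards. Txn1, Prdx6 and Gclc lie in group 2, where these shares were 26.5% and 19.5%. Prdx2 lies in group 3 (24.3% and 22.2%) and Txnrd1, Prdx1 and Prdx5 in group 4 (16.7% and 20%). A 2-fold difference was therefore less common among genes as bright as Gpx1 than among genes as dim as Txn1, Prdx6 and Gclc. The shares did not rise steadily as signal fell: in group 1, which holds no member, they were 12.3% and 7.82%.

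Set side by side, the reductases had opposite signs, with a log2 difference of 2.04 for Txnrd1 and of -0.95 for Gsr. So did the glutathione-using enzyme Gpx1 (1.67) and the glutathione-making enzyme Gclc (-1.15). Gpx1 does not stand for all glutathione-using enzymes. Prdx6, whose probes disagreed, had a mean of -1.02, and the peroxidase Gpx4 stood at -0.80. Glutathione transferases lay on both sides, such as Gstp1 at 1.24 and Gstm1 at -1.12. Direction was the same under all 11 alternative ways of processing for each of the 9 measured members. Txnrd1 and Gpx1 were at least 2-fold higher in 11 of 11, and Txn1 in 7 of 11. Gclc was at least 2-fold lower in 9 of 11, Prdx6 in 7 of 11 and Gsr in 2 of 11. Prdx1, Prdx2 and Prdx5 were within 2-fold in all of them. Changes of filter, probe summary, outlier spots or naming could not move members with a single probe, such as Txn1, Txnrd1, Gclc and Gpx1. Only other scalings, background corrections or the series table bear on those members. Under these, Txn1 was 1.36 and 1.06 (75th percentile of detected probes, series table). It fell within 2-fold at 0.78 (75th percentile of all probes), 0.89 (quantile), 0.69 (normexp) and 0.61 (uncorrected).

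**Figure D3:**
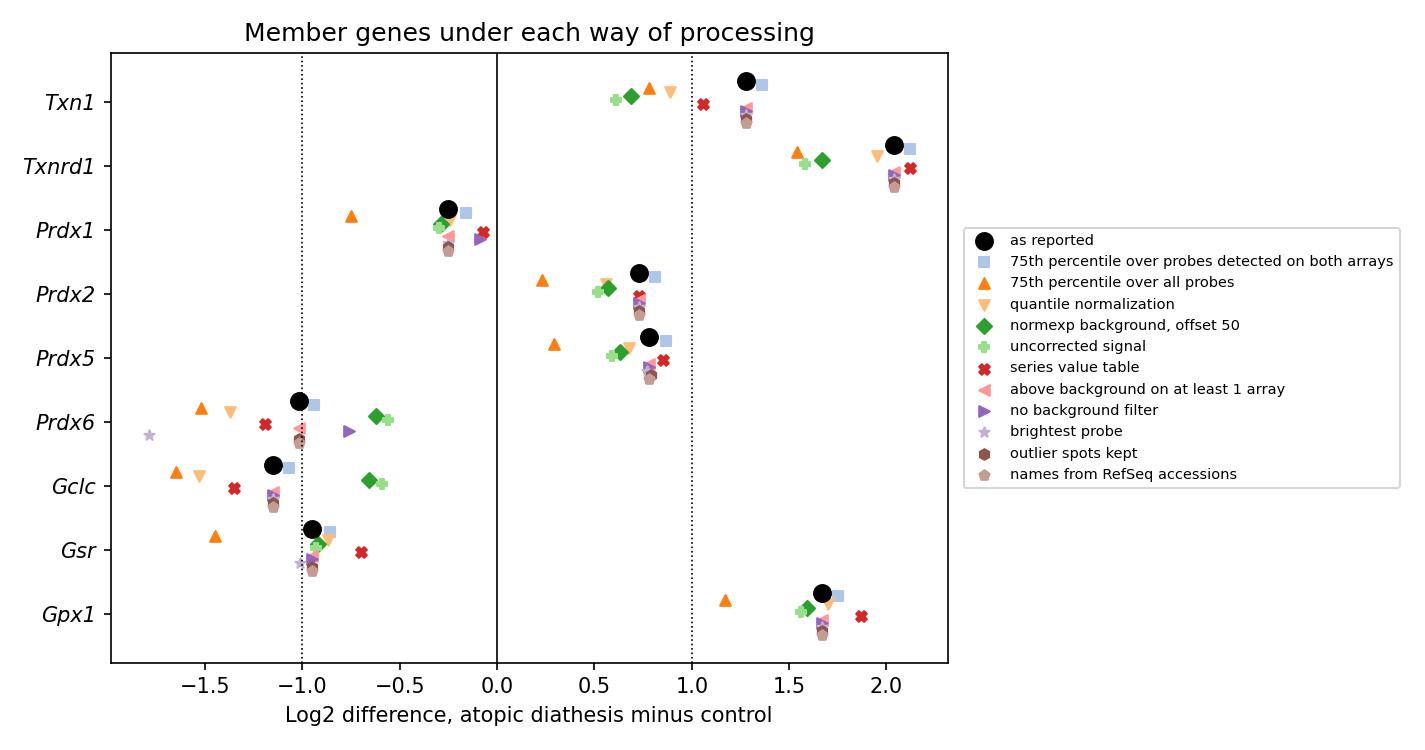
Log2 difference of the 9 measured member genes (atopic diathesis minus control) as reported (large black circle) and under 11 other ways of scaling, background correction, filtering, summarising or naming the probes, with dotted lines at 2-fold. Txnrd1 runs from 1.54 to 2.12 and Gpx1 from 1.17 to 1.87, all past 2-fold, whereas Txn1 (0.61 to 1.36), Prdx6 (-1.79 to -0.56) and Gclc (-1.65 to -0.59) cross it.

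Further genes of the same pathways came from 5 lists of 78 genes in all, of which 34 were measured. Of these, 11 (32.4%) passed 2-fold upwards and 4 (11.8%) downwards, beside 17.3% and 15.6% of all measured genes, and their median was 0.53. Another 10 were above background on the control array only and 8 on the atopic diathesis array only. Such genes have a bound in place of a fold: the brighter signal is divided by the lowest signal well above background on the other array, or by the probe's own signal there if that is higher, relative to the median gene. Bounds leave out spot error, so a fold given as at least a value could be somewhat smaller, and bounds just past 2-fold may lie within it. The bound passed 2-fold for 9 of the former and 4 of the latter, and 26 genes were not above background on either array. Over all 34793 gene names, 1443 (4.15%) were detected in control only and 2806 (8.06%) in atopic diathesis only, with bounds past 2-fold for 738 and 1662.

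Among 19 other thioredoxin and peroxiredoxin genes, 7 were measured, 2 were at least 2-fold higher and 0 lower. Txn2, the mitochondrial thioredoxin, had a mean log2 difference of 1.93 made of 3.71 on one probe and 0.16 on the other measured one. A further Txn2 probe was not above background (4.27 and 5.61). Msrb2, a mitochondrial methionine sulfoxide reductase, was 2.11-fold higher (273 and 563). Prdx3, the mitochondrial peroxiredoxin, read 63.7 and 57.0 (log2 -0.13), and Prdx4, that of the endoplasmic reticulum, was not above background. Txnrd2, the mitochondrial counterpart of Txnrd1, was above background in control only, at 42.5 and 10.6, at least 2.09-fold lower in atopic diathesis. Msrb1, another methionine sulfoxide reductase, was likewise at least 3.82-fold lower. Sesn3, a sestrin, was above background in atopic diathesis only, at 4.33 and 51.0, at least 2.64-fold higher. Srxn1, the sulfiredoxin that repairs over-oxidised peroxiredoxins, was also detected there only, at 4.28 and 35.4, with a bound of 1.83-fold.

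In the glutathione list of 32 genes, 13 were measured, with 5 at least 2-fold higher and 2 lower. Glrx2, a mitochondrial glutaredoxin, had a mean of 2.43 made of 4.88 on one probe and -0.02 on another, and the latter shares 25 bases with probes of 6 other gene names. Hagh, a glyoxalase, read 56.2 and 209 (log2 1.93), and the transferases Gstm5 and Gstp1 stood at 1.53 and 1.24. Slc3a2, the heavy chain shared by the cystine importer and other amino acid transporters, read 2432 and 6232 (log2 1.39), while Slc7a11, the light chain of the cystine importer, was not above background. Mgst3, a microsomal transferase, read 128 and 24.7 (log2 -2.34), and Gstm1 read 685 and 308 (log2 -1.12). Gpx4, the peroxidase of membrane lipids, lay within 2-fold at -0.80. Another 6 genes of the list were detected in control only and 0 in atopic diathesis only, where over all gene names the latter kind was the more common (8.06% against 4.15%). Gss, which completes glutathione synthesis after Gclc, read 71.2 and 6.76, at least 3.50-fold lower in atopic diathesis. Bounds for the others were 78.1-fold for Gpx8 (1589 and 4.22), 15.3-fold for Chac1, an enzyme that degrades glutathione, 10.9-fold for Ggt5, 4.07-fold for Glrx5 and 2.58-fold for Esd.

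The list named for NADPH supply was split, with 2 higher and 2 lower among 6 measured of 9. Of these, Taldo1 and Tkt do not form NADPH themselves. Nnt, the mitochondrial transhydrogenase, read 311 and 1672 (log2 2.46) and Taldo1 of the pentose phosphate pathway 137 and 359 (log2 1.43). The Nnt value came from its only measured probe. Its other probes were not above background on either array (4.22 and 6.12, 4.64 and 4.73). Idh2, the mitochondrial isocitrate dehydrogenase, read 4593 and 228 (log2 -4.30) and Tkt, a transketolase, 882 and 330 (log2 -1.39). G6pdx, which opens the pentose phosphate pathway, stood at 0.90 and Pgd, the dehydrogenase that follows it, at -0.77. Of 13 genes for Nrf2, its partners and its targets, 6 were measured, 2 were at least 2-fold higher and 0 lower. Bach1, a repressor of Nrf2 target genes, read 99.9 and 865 (log2 3.15), and Hmox1, the inducible haem oxygenase, 70 and 220 (log2 1.69). The other Hmox1 probe, at 14 and 12.4, was not above background on either array. Nfe2l2, which encodes Nrf2, was detected in atopic diathesis only, at 12.7 and 68.7, at least 3.55-fold higher, and its dimer partner Mafk likewise, at least 2.63-fold. Maff, another partner, was detected in control only, at least 6.59-fold lower, and the target Nqo1 was not above background. Of 5 superoxide and peroxide enzymes, Sod1 stood at -0.60 and the mitochondrial Sod2 was detected in atopic diathesis only (3.90 and 68.5), at least 3.54-fold higher. The Cat value of 0.00 came from a probe with a run of repeated CA units, and its other probe was not above background.

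**Figure D4:**
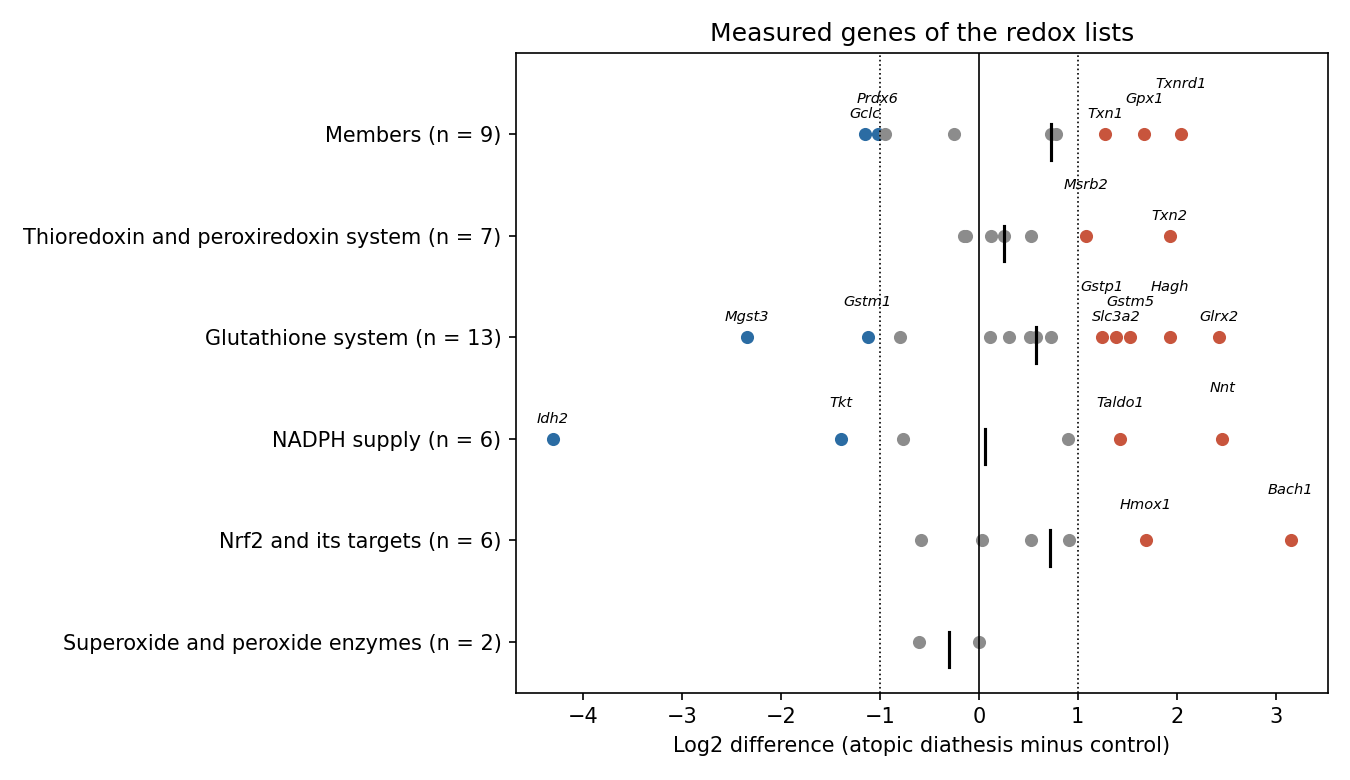
Log2 difference (atopic diathesis minus control, relative to the median measured gene) of the measured members and of the measured genes of the 5 lists, 1 point a gene, red and named where at least 2-fold higher, blue and named where at least 2-fold lower, with a black bar at each list's median and dotted lines at 2-fold. The 9 members run from -1.15 to 2.04, and Idh2 at -4.30 and Bach1 at 3.15 are the outermost points.

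Nrf2 acts at antioxidant response elements, so the promoters of the members were searched for the core of that element, TGACNNNGC, on both strands. RefSeq windows (GRCm38.p6, from 250 bases before to 50 after the start) were at hand for 7 of the 10 members, 9 windows in all. A match was found for 3 of these 7 genes, Txnrd1, Prdx1 and Gclm, 1 window each. Of all 32851 windows of that length 12.4% hold a match, and of all 27025 genes with a window 14%. The matches, each on the strand opposite to the gene, are shown with their flanks, the match in capitals, because these 3 genes differ in their readings: Txnrd1 was higher, Prdx1 within 2-fold and Gclm undetected.
Txnrd1, chr10:82859104-82859132 (GRCm38.p6, plus strand): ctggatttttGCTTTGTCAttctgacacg
Prdx1, chr4:116685456-116685484 (GRCm38.p6, plus strand): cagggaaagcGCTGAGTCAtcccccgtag
Gclm, chr3:122245413-122245441 (GRCm38.p6, plus strand): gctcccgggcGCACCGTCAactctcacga

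The Txnrd1 match lies in 1 of its 3 windows, at positions -92 to -84 from that start. In Prdx1 it lies at -133 to -125 and overlaps the AP-1 motif TGAGTCA, and in Gclm it lies at -134 to -126. A match describes letters in the window and not binding, and no binding was measured here.

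The labelled cell type was checked against its markers. The 7 microglia markers P2ry12, Tmem119, Cx3cr1, Sall1, Csf1r, Fcrls and Siglech were measured and lay within 2-fold, with a median of -0.09 and a summed signal of 61450 in control against 56764 in atopic diathesis. The 4 erythroid markers, which matter here because red cells are rich in Prdx2 and Gpx1, were not above background on either array (summed signals 26.8 and 38.8), nor were the 4 markers of perivascular macrophages, the 5 of neutrophils and monocytes or the 4 of T and B cells. Of 4 mast cell markers only Mcpt4 was detected, in atopic diathesis (5.02 and 56.5), on a probe that shares 25 bases with a probe of 1 other gene name. Among astrocyte and oligodendrocyte markers, the log2 difference was -0.23 for Gfap, -0.01 for Slc1a3 and 0.56 for Mbp, while Gja1, Mag and the endothelial Pecam1 were detected in atopic diathesis only and the endothelial Flt1 in control only. The part of such cells in the members' values was not tested. Detection also differed: of 55681 probes, 24.1% cleared the background in control and 27.6% in atopic diathesis, with 0 saturated spots.

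A change of scaling percentile moved all members by the same amount. Relative to the 75th percentile of probes detected on both arrays, the median measured gene lay at 0.08, and relative to the 75th percentile of all probes at -0.50. On the latter scale Txnrd1 stood at 1.54, Gpx1 at 1.17, Txn1 at 0.78, Gclc at -1.65 and Gsr at -1.45. There Prdx6 stood at -1.52, Prdx1 at -0.75, Prdx5 at 0.29 and Prdx2 at 0.23. Prdx1 then differed from 0 by more than its spot error of ±0.29, and Prdx2 did not. The share of higher genes among all genes past 2-fold was 52.6% as reported, 28.3% on that scale and 42% after quantile normalization.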

How the data were processed

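Each of 2 samples has 1 deposited Agilent scanner file of spot intensity on a linear scale, per the file headers made with Feature Extraction 10.7.1.1 (9.5.1.1 per the submitters' processing notes), whose processed signal is background-subtracted. Coordinates are mm9 per the file headers. The deposited series table holds the authors' normalized linear intensity. Both its columns have a median of 6.64 and keep the scanner files' ranks (Spearman 1). Its normalization step, scale factor and centring are not given in the sources used here, and its values are not ratios.

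Control spots (3671) and outlier spots (136 and 122) were left out. Log2 processed signals were scaled to the 75th percentile of probes well above background on both arrays (785 and 725), then centred on the median measured gene. A gene's value is the mean over its measured probes, and genes follow the files' own names, except Msrb1, found through its accession in RefSeq names (GRCm38.p6). Spot error came from 101 probes with at least 5 usable spots. The number of arrays limits the precision. The calculation was tested on simulated data. Named were all 10 members, listed genes past 2-fold by value or bound, and Prdx3, Prdx4, Txn2, Txnrd2, Gpx4, Gss and Srxn1 whatever their value, plus well-known markers and Slc7a11, G6pdx, Pgd, Nqo1, Sod1, Cat, Mafg, Glrx3, Txnip and Ftl1, picked after their values were seen. A few cell type markers are not reported here. Members and lists were chosen with earlier results of these data known. Alternatives were other scalings, background corrections, filters, summaries and names. Python 3.11.15, pandas 2.3.3, numpy 2.4.6, matplotlib 3.10.9, R 4.3.3 and limma 3.58.1 (normexp, offset 50) were used.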

Additional observations from a re-analysis of the deposited data

How the results depend on the processing

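No member changed direction under any of the 11 alternatives, several of which could not move a member with a single probe. The count of members at least 2-fold higher was 3 as reported and 2 or 3 under all of them. The count at least 2-fold lower, 2 as reported, was 1 when scaled to the 75th percentile of detected probes without centring, 0 with normexp or uncorrected signals and 1 without a background filter, and it was 3 on the scale of all probes and with the brightest probe, where Gsr passed 2-fold. It was also 1 when Prdx6 probe 1 or probe 2 was left out, an alternative chosen after seeing the data. Of the 34 measured pathway genes, 11 were higher and 4 lower as reported. Scaled to the 75th percentile of all probes these counts were 7 and 8, and with uncorrected signals 2 were lower. With genes above background on at least 1 array they were 19 and 14 (of 52), and with no filter 20 and 13 (of 78), since more genes enter. Over the 9204 measured genes, 1594 were higher and 1435 lower as reported (17.3% and 15.6%). These counts became 987 and 2501 on the scale of all probes, 1007 and 965 with normexp and 900 and 882 uncorrected. With genes above background on at least 1 array they were 4285 and 2566 of 13546 genes (31.6% and 18.9%). With no filter they were 6002 and 2821 of 34793 genes (17.3% and 8.11%). Of the measured members, Txn1 and Gclc moved most with the background correction, to 0.69 and -0.66 under normexp, where Gpx1 read 1.59 and Gsr -0.92. No paired analysis was possible because each group has 1 sample. No replicate could be left out for the same reason.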

Other observations

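Among the other genes of the redox lists, 7 had more than 1 measured probe. Of these, 0 had probes past 2-fold in opposite directions as Prdx6 did, 4 had probes both within and past 2-fold (Txn2, Glrx2, Gstp1 and Mafg), and 3 had all probes within 2-fold (Txnip, Glrx3 and Ftl1). One Txn2 probe read 40.8 in control and 521 in atopic diathesis microglia, the other 24.6 and 26.8. One Glrx2 probe read 24.1 and 691 (log2 4.88), and another, which shares 25 bases with probes of 6 other gene names, read 116592 and 112080 (log2 -0.02). The 3 measured Mafg probes stood at -0.13, 1.07 and 1.78. Snap25, the only neuron marker measured of 5, read 82155 and 84015 on a probe with a run of 10 CA units, and Cat read 38379 and 37444 on a probe with a run of 8.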
